A study of Mus musculus with 24 samples.

Results

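The family of miR-28, miR-151 and miR-708 is a group of microRNAs (miRNAs) that miRBase files together for the similarity of their hairpins. Its members here are the rows that the deposited count table names mir-28, mir-151 and mir-708 (miR-28, miR-151 and miR-708 below), which are 3 of the 510 miRNAs listed, and all 3 passed the filter on low counts, with 237 miRNAs tested in all. The family was selected on measured values of these data, taken here to be the tumor-normal differences, so the tumor-normal values of the members, and their changes between weeks, are given as a description with no p-value. Where the fit over all miRNAs called a member on these values, the count is given beside the share of all miRNAs called, and nothing is read from it. Adjusted p-values are given for the members only for differences between weeks within a tissue.

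Small RNA was sequenced from the mammary tumors of PyMT mice and the normal glands of FVB mice of the same ages (weeks 6, 8, 10 and 12), with 3 mice in each of the 8 groups and 24 libraries in all. PyMT mice were F1 females of the FVB strain, heterozygous for a transgene in which the mouse mammary tumor virus (MMTV) promoter drives the polyoma middle T antigen, an oncoprotein, in the mammary epithelium. The controls were homozygous FVB females without the transgene. The labels give the tumor tissue as hyperplasia at week 6, adenoma or mammary intraepithelial neoplasia (MIN) at week 8, early carcinoma at week 10 and late carcinoma at week 12. Each library is bulk tissue, in which fewer cells of a type and less RNA per cell cannot be told apart.

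A mature miRNA guides the silencing complex to messenger RNAs, mostly by pairing of its seed (bases 2 to 8) with the 3′ untranslated region, and lowers the stability and translation of its targets. All members of this family lie inside protein-coding genes. miR-151 sits in the gene of focal adhesion kinase and is known for its part in the motility of tumor cells, miR-28 is known as a restraint on the growth of B lymphocytes, and miR-708 has been studied as a restraint on the migration of breast cancer cells.

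In the mm9 annotation, the build named in the labels, the miR-28 hairpin is at chr16:24827941-24828026 on the plus strand, in an intron of Lpp, which encodes a protein of focal adhesions. The miR-151 hairpin is at chr15:73085245-73085312 on the minus strand, in an intron of Ptk2, the gene of focal adhesion kinase. The miR-708 hairpin is at chr7:103397934-103398042 on the plus strand, in an intron of Odz4 (now Tenm4), a teneurin of the cell surface. Each hairpin lies on the strand of its host gene, and none has another annotated miRNA within 10 kb, so no member shares a cluster with another miRNA in this annotation.

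The mature sequences of RefSeq (GRCm38.p6) for miR-28 and miR-708 are shown because the report turns on a contrast between members that share a seed. The row miR-28 was matched to Mir28a, for which RefSeq gives mir-28 as a synonym, so 2 of the 3 members and 4 mature sequences were matched; miR-151 was not. Capitals mark the seed.
mmu-miR-28a-5p: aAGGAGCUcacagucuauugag
mmu-miR-708-5p: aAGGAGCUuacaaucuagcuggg
mmu-miR-28a-3p: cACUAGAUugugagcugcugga
mmu-miR-708-3p: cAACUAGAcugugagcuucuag
The 5p strands of miR-28a and miR-708 have the same seed, AGGAGCU, and no other of the 1679 mature miRNAs in the RefSeq table has it. Counted from 1 at the 5′ end, the first 8 bases are identical, 16 of the 22 positions compared are identical, and the differences from miR-28a-5p to miR-708-5p are C9U, G13A, U18G, U19C, G20U and A21G. The 3p strands have seeds of their own, each found in 1 mature miRNA of the table. The deposited counts are per hairpin name, so the 5p and 3p strands of a member were counted together and cannot be told apart.

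Normal libraries held 1626022 to 3931375 counts and tumor libraries 1032241 to 2213972, and 3 counts correspond to between 0.763 and 2.91 CPM, the count scaled to a common library size. In 6 libraries the summed CPM of the skeletal muscle miRNAs was above 10000. Of these, 4 were normal (week 6 replicates 1 and 2, week 10 replicate 3 and week 12 replicate 1). The other 2 were tumors (week 6 replicate 1 and week 10 replicate 3). The average and weekly tumor-normal log2 fold changes are given again without these 6 libraries further on. The values below are CPM after trimmed mean of M-values (TMM) normalization over the 24 libraries, and weekly log2 fold changes are those of tumor over normal from edgeR. Since hairpins differ in how well they are ligated and amplified in a small RNA library, levels are compared between groups and not between members.

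miR-708 was lower in tumors than in normal glands at every week, and its log2 fold change was lower at each later week, while miR-28 and miR-151 differed little. On the average over the 4 weeks, in the fit of all 24 libraries, the log2 fold change of miR-708 was -2.66 (SE 0.24, 95% interval -3.17 to -2.16), that is 6.34 times lower in tumors. That of miR-28 was 0.24 (SE 0.08, 95% interval 0.08 to 0.41) and that of miR-151 was 0.31 (SE 0.11, 95% interval 0.09 to 0.53). Of the 237 tested miRNAs, 203 were called on this average at an adjusted p under 0.05 in edgeR. Nothing is therefore read from an interval that excludes 0. Ordered from the lowest average log2 fold change, miR-708 was number 6 of the 237 miRNAs tested.

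**Figure D1:**
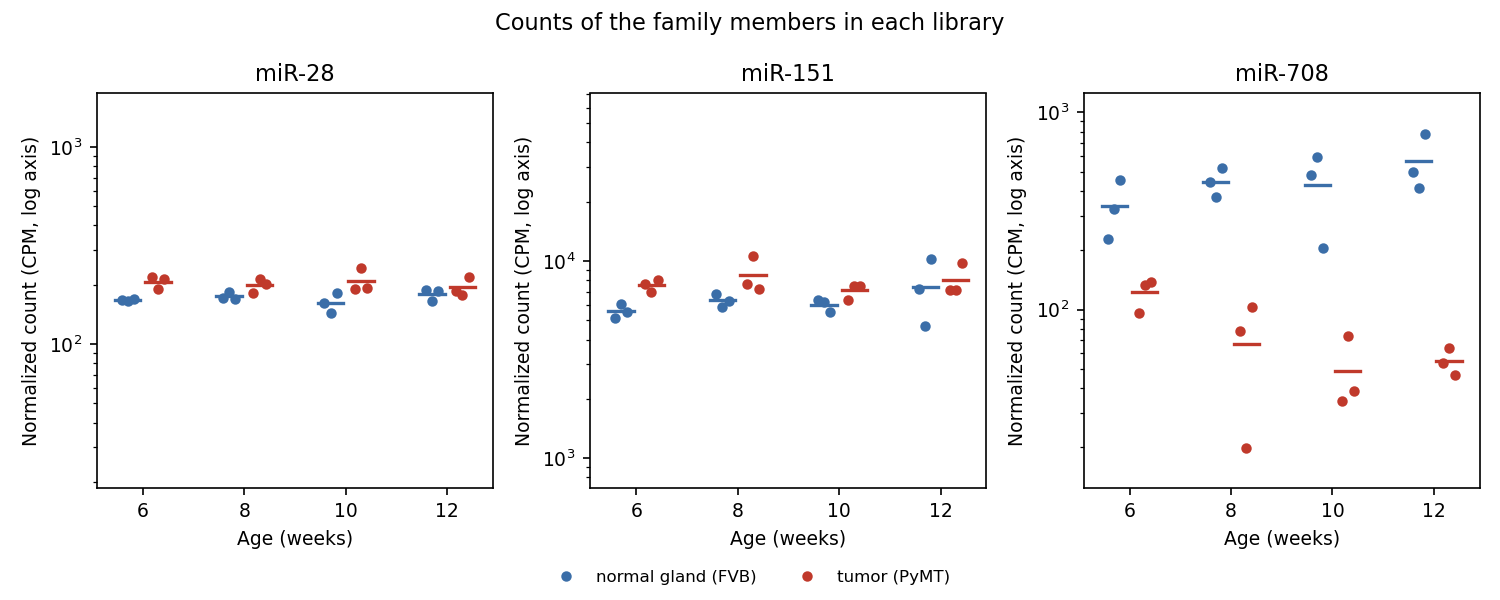
CPM (log axis) of miR-28, miR-151 and miR-708 against age in weeks, with a point for each library, the normal gland in blue and the tumor in red, and a line at the mean of each group of 3 libraries; all panels span the same fold range. The 12 tumor libraries of miR-708 lie between 19.99 and 138 CPM, all below the 12 normal libraries at 206 to 779 CPM, while those of miR-28 and miR-151 lie close to the normal ones.

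At week 6, miR-708 had 227, 323 and 453 CPM in normal replicates 1 to 3 and 96.2, 134 and 138 CPM in tumor replicates 1 to 3. At week 8 it had 446, 371 and 521 CPM in normal glands and 78.4, 19.99 and 103 CPM in tumors. All tumor libraries of both weeks were below all normal ones, and tumor replicate 2 of week 8 held the lowest value of the whole series. At weeks 6 and 8, 34.6% and 19.8% of the tested miRNAs had all tumor libraries below the normal ones. That lowest value rests on 17 counts, or 16.5 CPM before TMM normalization with a 95% Wilson interval of 10.3 to 26.4, which covers counting error only since amplified reads are not independent molecules.

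At week 10, miR-708 had 482, 594 and 206 CPM in normal glands and 34.4, 73.5 and 38.8 CPM in tumors. At week 12 it had 499.6, 416 and 779 CPM in normal glands and 53.7, 64.0 and 46.8 CPM in tumors. The groups again did not overlap, as for 31.6% and 28.7% of the tested miRNAs with the tumor lower, although normal replicate 3 of week 10, a library with high skeletal muscle miRNAs, was the lowest normal library of all. The same non-overlap at all 4 weeks, with the tumor lower, was found for 25 of the 237 miRNAs (10.5%), and 23 miRNAs (9.70%) had all 12 tumor libraries below all 12 normal libraries, miR-708 among them.

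The weekly log2 fold change of miR-708 was -1.44 (SE 0.32), -2.74 (SE 0.56), -3.16 (SE 0.50) and -3.39 (SE 0.34) at weeks 6, 8, 10 and 12, with 3 libraries in each group. Tumors had 2.71, 6.70, 8.94 and 10.5 times less miR-708 at these weeks. Counted from the lowest of the 237 miRNAs, it stood at numbers 21, 3, 1 and 5. A log2 fold change that was lower at each later week was seen for 36 of the 237 miRNAs (15.2%), and one below -1 at all 4 weeks for 14 (5.91%). Over all tested miRNAs the median log2 fold change lay between -0.19 and -0.09 in the 4 weeks.

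**Figure D2:**
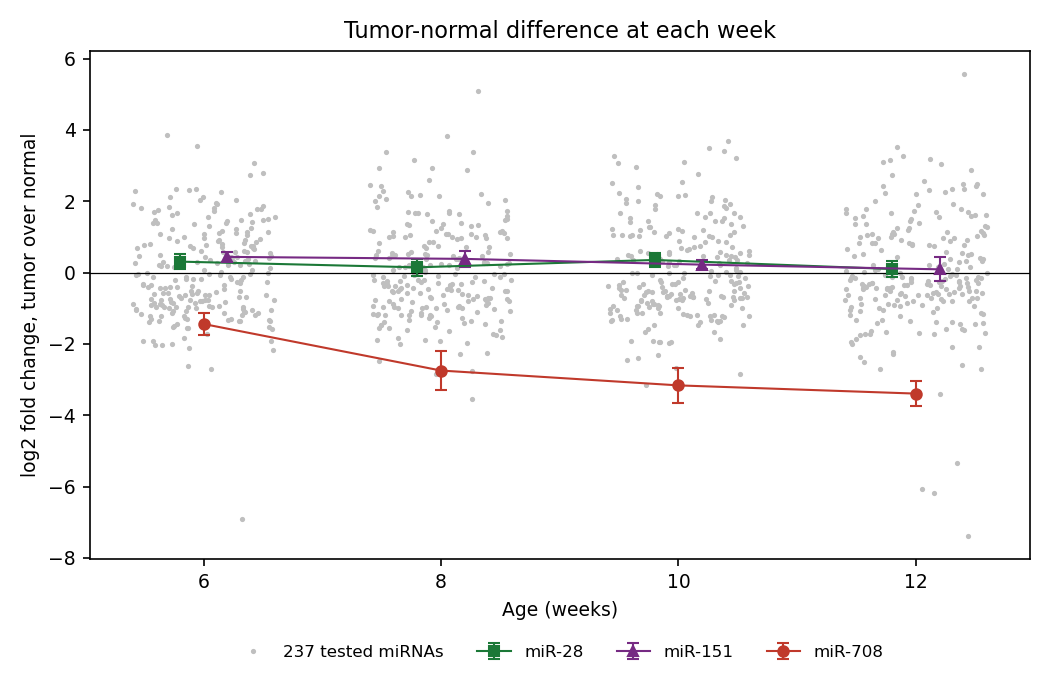
Log2 fold change of tumor over normal at each week for the 3 members (colored symbols joined by lines, bars of 1 SE) and for each of the 237 tested miRNAs (gray points, spread sideways for legibility). miR-708 goes from -1.44 at week 6 to -3.39 at week 12, and miR-28 and miR-151 stay between 0.09 and 0.44.

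miR-28 had a narrow range of levels in both tissues. In normal glands the 12 libraries ranged from 143 to 188 CPM with a median of 169 CPM, and in tumors from 179 to 243 CPM with a median of 198 CPM. The group means (± SD, n = 3) in normal glands were 167 ± 1.35, 176 ± 7.90, 162 ± 19.6 and 180 ± 12.5 CPM at weeks 6, 8, 10 and 12. In tumors they were 207 ± 14.6, 199 ± 16.7, 209 ± 29.7 and 194 ± 20.99 CPM. Tumor and normal libraries did not overlap at weeks 6 and 10 (tumor higher, as for 34.2% and 36.3% of the tested miRNAs) and overlapped at weeks 8 and 12. The weekly log2 fold changes were 0.31 (SE 0.20), 0.15 (SE 0.24), 0.36 (SE 0.20) and 0.10 (SE 0.23), so that each lay within 2 SE of 0. The pooled SD of its log2 CPM within groups, 0.13, was the second lowest of the 237 miRNAs, whose median was 0.37.

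miR-151 was the most counted member, with 8204 to 26067 counts in a library. At week 6 it had 5114, 6057 and 5492 CPM in normal glands and 7644, 6942 and 8026 CPM in tumors. At week 8 it had 6818, 5875 and 6306 CPM in normal glands and 7691, 10649 and 7196 CPM in tumors. At week 10 it had 6327, 6189 and 5545 CPM in normal glands and 6359, 7442 and 7509 CPM in tumors. Tumor libraries of these 3 weeks were all higher than the normal ones, as for 34.2%, 32.1% and 36.3% of the tested miRNAs, although the nearest libraries of week 10 had 6327 and 6359 CPM. At week 12 it had 7197, 4704 and 10254 CPM in normal glands and 7167, 7117 and 9801 CPM in tumors, and the groups overlapped; at that week 33.3% of the tested miRNAs had no overlap with the tumor higher. The normal libraries of week 12 spread from the lowest to the second highest value of the series for this miRNA. The weekly log2 fold changes were 0.44 (SE 0.14), 0.39 (SE 0.23), 0.22 (SE 0.13) and 0.09 (SE 0.34). Those of miR-28 and miR-151 all lay within 0.5 of 0, which was the case for 24 of the 237 miRNAs (10.1%).

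With edgeR's quasi-likelihood test and a threshold of 0.05 on the p-value after Benjamini-Hochberg adjustment, miR-151 and miR-708 were called at week 6 and miR-708 alone at weeks 8, 10 and 12. Of all tested miRNAs 58.6%, 35.4%, 60.3% and 50.6% were called at these weeks, and 18 miRNAs (7.59%) were called lower in tumors at all 4. These calls follow from the contrast that led to the choice of the family and support nothing further. The miR-708 calls were kept in all 16 alternatives of each week, and the miR-151 call of week 6 was lost in 9 of 16. With the replicate number as a block, miR-151 was not called at week 6, and 131 miRNAs in place of 84 were called at week 8.

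The sequencing lanes, numbered 1 and 2 in the labels, held 6 tumor and 6 normal libraries each. Within lane 1 the difference in mean log2 CPM between tumor and normal, averaged over weeks, was -2.89 for miR-708, 0.17 for miR-28 and 0.23 for miR-151. Within lane 2 it was -2.52, 0.29 and 0.34. The direction of these averages was the same in both lanes, but that of single weeks was not always. At week 12, miR-28 and miR-151 had -0.015 and -0.0061 in lane 1, and 0.17 and 0.27 in lane 2. Lane 1 held only replicate 1 of each tissue at that week. For miR-708, weeks 6, 8, 10 and 12 had -1.25, -3.33, -3.78 and -3.20 in lane 1, and -1.70, -2.32, -2.69 and -3.36 in lane 2. A lower value at each later week was thus seen in lane 2 only, with 1 or 2 libraries of a group in a lane. These values come from the tumor-normal differences that led to the choice of the family and are a description. In the 12 pairs of a tumor and a normal library with the same week and number, miR-708 was lower in the tumor in 12, miR-28 in 1 and miR-151 in 2, and 50 of the 237 miRNAs (21.1%) were lower in all 12.

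The change of the tumor-normal difference between weeks was taken from the edgeR fit of all 24 libraries. It is built from the weekly differences above and so is not independent of how the family was selected. The change of the tumor-normal log2 fold change of miR-708 from week 6 to week 12 was -1.92 (SE 0.65, 95% interval -3.27 to -0.56). For miR-28 this change was -0.20 (95% interval -0.66 to 0.27), and for miR-151 it was -0.32 (95% interval -0.94 to 0.30). At an adjusted p under 0.05 none of the 3 members was called, and 1 of the 237 miRNAs was (0.422%), or 2 with a block for each same-numbered pair. The F test over all 4 weeks called 0 miRNAs in edgeR, against 9 (3.80%) at an unadjusted p under 0.05, and 0 in DESeq2. The order of the weekly values of miR-708 is thus a description, and it did not pass the threshold across all miRNAs.

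Differences between weeks within a tissue were tested with edgeR in the same fit, with p-values adjusted over the 237 miRNAs, and no member passed in the fit of all 24 libraries. The changes within tumors and within normal glands make up the change of the tumor-normal difference and use the same libraries. Their p-values are therefore not free of how the family was selected. Within tumors, the 3 miR-708 libraries of week 12 (46.8 to 64.0 CPM) lay below the 3 of week 6 (96.2 to 138 CPM); 41.4% of the tested miRNAs had no overlap between these groups. The log2 fold change from week 6 to week 12 was -1.16 (SE 0.46, 95% interval -2.13 to -0.19) with an adjusted p of 0.134, while 18 miRNAs (7.59%) were called. Within normal glands the libraries of the same weeks overlapped (25.3% of the tested miRNAs did not) and the log2 fold change was 0.76 (SE 0.45, 95% interval -0.19 to 1.71, adjusted p 0.250), while 50 miRNAs (21.1%) were called. Without the muscle-rich libraries, which leave 1 normal library at week 6 that is assumed to vary like the other groups, it was 0.40 (SE 0.63, adjusted p 0.759). Ordered by mean (± SD), miR-708 had 565 ± 190 CPM in normal glands of week 12, then 446 ± 74.6, 427 ± 199 and 334 ± 113 CPM in those of weeks 8, 10 and 6. Tumors followed with 123 ± 23.2 CPM in week 6, then 67.2 ± 42.7, 54.8 ± 8.65 and 48.9 ± 21.4 CPM in weeks 8, 12 and 10. The normal gland and the tumor of week 6 are the only neighbors in this order whose libraries did not overlap.

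miR-28 and miR-151 gave small changes with age. From week 6 to week 12 the log2 fold change of miR-28 was 0.10 in normal glands (SE 0.16, adjusted p 0.693) and -0.09 in tumors (SE 0.16, adjusted p 0.724). That of miR-151 was 0.41 in normal glands (SE 0.21, adjusted p 0.188) and 0.09 in tumors (SE 0.21, adjusted p 0.792). Without normal replicate 2 of week 12, which had 4704 CPM, the normal change of miR-151 passed with an adjusted p of 0.0142, so its place beside the threshold was decided by that library, and over all alternatives and left-out libraries its adjusted p ranged from 0.0142 to 0.863. The F tests over the 4 weeks within a tissue gave adjusted p-values of 0.704, 0.915 and 0.594 in normal glands and 0.249, 0.965 and 0.894 in tumors for miR-708, miR-28 and miR-151. They called 33 miRNAs (13.9%) in normal glands. In tumors they called 0 in edgeR, where 39 (16.5%) had an unadjusted p under 0.05, and 13 in DESeq2.

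Ratios within a library do not depend on how libraries are scaled to each other. Since hairpins are not ligated and amplified alike, a ratio is compared between groups and its own size is not read. The count of miR-708 was between 1.13 and 4.20 times that of miR-28 in the 12 normal libraries and between 0.0934 and 0.703 times that of miR-28 in the 12 tumor libraries. The mean log2 ratio was 1.29 ± 0.57 (SD, n = 12) in normal glands and -1.66 ± 0.85 (SD, n = 12) in tumors. The log2 ratio of miR-28 to miR-151, by contrast, was -5.18 ± 0.27 in normal glands and -5.26 ± 0.19 in tumors, so the ranges of the tissues overlapped for this pair and did not for miR-708. These ratios restate the tumor-normal differences that led to the choice of the family and are a description. How often ratios of other miRNAs do not overlap was not computed.

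**Figure D3:**
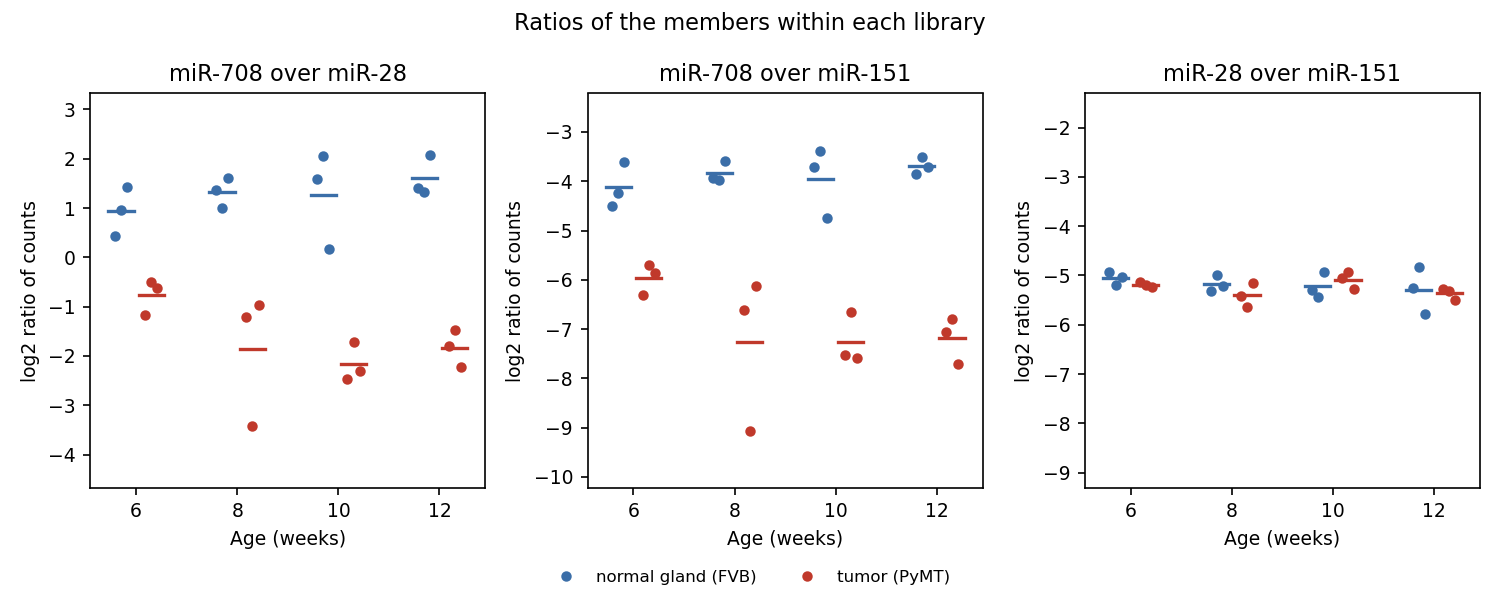
Log2 ratio of raw counts of 2 members within each library against age in weeks, with the normal gland in blue, the tumor in red and a line at each group mean; all panels span 8 log2 units. The ratio of miR-708 to miR-28 is above 0 in all normal libraries (0.18 to 2.07) and below 0 in all tumor libraries (-3.42 to -0.51), and the ratio of miR-28 to miR-151 overlaps between the tissues.

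Of the counts of the family, miR-708 took 6.32% ± 1.53 (SD, n = 12) in normal libraries and 0.940% ± 0.505 in tumor libraries. miR-151 took 91.1% ± 1.39 and 96.5% ± 0.693, and miR-28 took 2.55% ± 0.445 and 2.54% ± 0.317. For the hairpins whose 5p strands share the seed shown above, miR-708 made up 70.4% ± 8.35 of their summed counts in normal glands (53.1% to 80.8%) and 25.5% ± 10.0 in tumors (8.54% to 41.3%). Summed, miR-28 and miR-708 had 614 ± 156 CPM in normal glands (389 to 965 CPM) and 276 ± 43.9 CPM in tumors (225 to 352 CPM). These sums include the 3p strands, which carry other seeds. The shares are likewise compared between groups and do not tell which member is the more abundant.

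The members also differed in how they varied over the 24 libraries. The root mean square deviation of the log2 CPM from its mean was 0.17 for miR-28, 0.29 for miR-151 and 1.50 for miR-708, where the median miRNA had 0.66. Between centered profiles, the root mean square difference was 0.22 for miR-28 and miR-151, and 1.61 and 1.65 between miR-708 and either. The tested miRNAs nearest to miR-708 by this measure were miR-150, a lymphocyte miRNA (0.54), miR-10b, a miRNA of the Hoxd locus (0.59), and miR-130a (0.69). Their weekly log2 fold changes were -0.77, -2.29, -2.66 and -2.58 for miR-150, -0.91, -1.99, -1.95 and -2.51 for miR-10b, and -1.32, -1.74, -1.86 and -1.76 for miR-130a. miR-28 was nearest to miR-186 (0.16), miR-425 (0.19) and miR-671 (0.20), and miR-151 to miR-99b (0.20), miR-192 (0.20) and miR-186 (0.21). Likeness over these 24 libraries is a description, since the points share groups, libraries and scaling.

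Marker miRNAs of the cell types that a mammary gland can hold were set beside the members. The counts of these lists are of miRNAs called higher or lower at an adjusted p under 0.05 in the weekly edgeR test. Of all 237 tested miRNAs, 70, 32, 65 and 51 were called lower in tumors at weeks 6, 8, 10 and 12. Those called higher were 69, 52, 78 and 69. Of 10 epithelial miRNAs (the miR-200 family, the miR-183 cluster, miR-203 and miR-205), 8 were called higher in tumors at each week and 1 was called lower at week 12, and their median log2 fold change was 1.77, 2.09, 1.98 and 2.21. The summed CPM of the list was 15327 to 30652 in normal libraries and 57013 to 98241 in tumor libraries, and miR-182, its most counted member, had log2 fold changes of 1.79 to 2.21. Of 6 miRNAs of stroma and smooth muscle, 6, 5, 5 and 5 were called lower in tumors at weeks 6, 8, 10 and 12, with medians of -0.87, -1.08, -1.13 and -1.42, a summed CPM of 159346 to 276752 in normal and 70615 to 137518 in tumor libraries, and log2 fold changes of -1.47 to -0.77 for miR-143, the most counted. miR-126 of the endothelium was called lower at all 4 weeks (-0.67, -1.46, -1.39 and -1.57), with 20498 to 37464 CPM in normal and 6568 to 18254 CPM in tumor libraries.

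Of 6 tested blood miRNAs, 2, 1, 2 and 4 were called lower, with medians of -0.64, -1.43, -0.73 and -1.27 and a summed CPM of 9479 to 36468 in normal and 3873 to 15427 in tumor libraries; miR-486 was the most counted, with log2 fold changes of -1.69 to -0.94, and miR-223 was listed at 0 in every library. Of 3 adipocyte miRNAs, 1 was called higher at week 6 and 0, 1 and 1 were called lower at weeks 8, 10 and 12, with 4662 to 25146 CPM in normal and 3046 to 15080 CPM in tumor libraries; their medians were 0.07, -0.89, -0.59 and -0.20, and miR-378 had the most counts (-1.72 to -0.62). Of 3 tested skeletal muscle miRNAs, 0, 1, 0 and 3 were called lower, with medians of -2.02, -2.25, -1.67 and -6.19. The summed CPM of all 6 listed, tested or not, ranged from 90.5 to 89385 in normal and from 40.8 to 18081 in tumor libraries. Of those tested, miR-133a had the most counts (-6.08 to -1.36). The part of these cell types in the level of miR-708 was not tested.

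**Figure D4:**
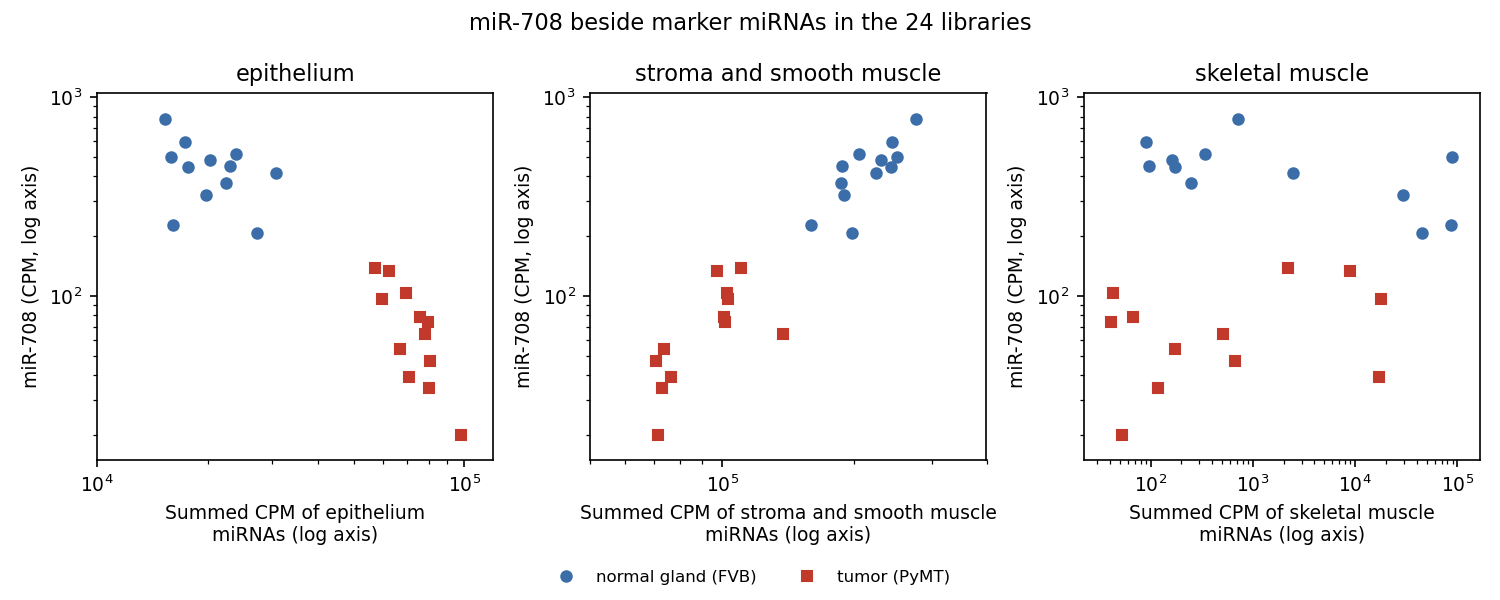
CPM of miR-708 (log axis) against the summed CPM of the marker miRNAs of epithelium, of stroma and smooth muscle and of skeletal muscle (log axes), with a point for each of the 24 libraries. Tumor libraries (red) have 57013 to 98241 CPM of epithelial miRNAs and 70615 to 137518 CPM of stromal miRNAs, apart from the normal libraries (blue) on both axes, and the lowest miR-708 point, at 19.99 CPM, has the highest epithelial sum.

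Tumor replicate 2 of week 8, the lowest in miR-708, had the highest epithelial sum of the series (98241 CPM) and the lowest endothelial (6568 CPM) and blood (3873 CPM) sums. Among normal libraries the 3 lowest miR-708 values, 206, 227 and 323 CPM, came from libraries with 45434, 87499 and 29089 CPM of skeletal muscle miRNAs, while the fourth such library, week 12 replicate 1 with 89385 CPM, had 499.6 CPM of miR-708. Without the 6 libraries over 10000 CPM of muscle miRNAs, the average log2 fold change of miR-708 was -2.94 (SE 0.26), that of miR-28 was 0.15 (SE 0.13) and that of miR-151 was 0.16 (SE 0.16). The weekly values of miR-708 were then -1.90, -2.85, -3.50 and -3.51 in a fit of the 18 libraries kept, and the change from week 6 to week 12 was -1.60 (SE 0.81). Those of miR-28 were 0.092, 0.067, 0.35 and 0.080, and those of miR-151 were 0.28, 0.32, -0.019 and 0.054, so that miR-151 at week 10 turned from above to below 0. The 3 normal libraries lowest in miR-708 are among the 6 left out, and normal week 6 then rests on 1 library. The part of muscle tissue in the difference of miR-708 was not tested.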

How the data were processed

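Small RNA libraries of 12 tumors and 12 normal glands (3 mice in each of 8 groups) were used. The authors trimmed barcode and adaptor, aligned the short reads with Bowtie, counted reads over miRBase miRNAs and deposited the raw counts. The labels name mm9 and the study's methods mm10, and 5p and 3p arms are not separated in the table. Groups, weeks, replicate numbers and lanes came from the labels, and each library is a separate mouse.

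Counts were tested with edgeR 4.0.16 in R 4.3.3 (filterByExpr over the 8 groups, TMM, quasi-likelihood test, Benjamini-Hochberg adjustment, threshold 0.05), per week for tumor against normal and in a fit of all 24 libraries for the average and the contrasts between weeks. The SE is the log2 fold change divided by the square root of F. CPM were scaled by TMM over the 24 libraries, and log2 CPM used a prior count of 2. Of 510 miRNAs, 364 had at least 1 count and 237 were tested. The Wilson interval and the floor of 3 counts cover counting error only, and the other intervals come from the SE of the edgeR fit. Deviations from the group means over miRNAs correlated by 0.20 to 0.82 in the same-numbered pairs of weeks 6, 8 and 10 and by 0.031 to 0.42 at week 12, where only 1 of 3 pairs was over 0.1; the numbers come from the labels, and the methods state no pairing. The members, the marker lists and the tests were chosen with earlier results of these data known. The miRNAs named are the members, the 3 with the nearest profile to each, the most counted of each marker list and any with a member's seed, and other markers are named as parts of their list. miR-223 was named after its values were seen. Positions are from the mm9 annotation and sequences from RefSeq.

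Alternatives were scaling by library sizes alone or by DESeq2 size factors, the tests of DESeq2 1.42.0, a minimum of 10 counts in each library, no filter, the replicate number as a block, lane as a covariate, without the 5 most counted miRNAs, a fit of all libraries and each library left out. Leaving out muscle-rich libraries was chosen after seeing the data. The procedure was tested on simulated data. Plots used Python 3.11.15 and matplotlib 3.10.9.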

Additional observations from a re-analysis of the deposited data

How the results depend on the processing

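No value past a threshold changed direction. Of the 885 alternative values of the members (log2 fold changes, adjusted p-values between weeks and family shares), 875 were counted as the same. That count leaves out the weekly calls, and the call of miR-151 at week 6 was lost in 9 of 16 alternatives. It also holds as the same the miR-151 value of -0.019 at week 10 without the muscle-rich libraries. The log2 fold change of miR-708 ranged from -2.94 to -2.60 on average over the alternatives and from -2.83 to -2.49 with a library left out. With library sizes only, miR-28 had 0.17, 0.018 and 0.26 at weeks 6, 8 and 12, without the 5 most counted miRNAs 0.10 on average, and without the muscle-rich libraries 0.092 at week 6. With a library left out, miR-28 had 0.020 to 0.21 at week 8 and -0.020 to 0.28 at week 12, and miR-151 had 0.12 to 0.56 and -0.17 to 0.35 at those weeks; the cause was not tested.

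Counts of called miRNAs moved more. Tumor-normal calls went to 131 at week 8 with the replicate block and, without the muscle-rich libraries (fewer samples), to 92 at week 6 and 128 at week 8. Left-out libraries gave 69 to 151 calls for week 6 and 50 to 79 for week 8. The change of the difference from week 6 to week 12 gave 0 with library sizes only, 3 with DESeq2, 2 with at least 10 counts, 2 with the replicate block, 2 with lane, 5 without the 5 most counted and 3 without the muscle-rich libraries, and 0 to 2 with a library left out. The same change in tumors gave 30, 10 and 38 with DESeq2, no filter and without the 5 most counted, 5 without the muscle-rich libraries and 0 to 23 with a library left out; in normal glands 28 with at least 10 counts, 19 without the muscle-rich libraries and 31 to 64 with a library left out. Differences among weeks gave 3, 13, 3, 7 and 3 in tumors (DESeq2 size factors, DESeq2 test, at least 10 counts, without the 5 most counted, without the muscle-rich libraries) and 0 to 6 with a library left out, in normal glands 18, 4 and 12 to 48 (at least 10 counts, without the muscle-rich libraries, left-out libraries), and 0 to 1 for the difference over all weeks. The adjusted p of miR-151 for week 12 against week 6 in normal glands was 0.0142 to 0.797 with a library left out, under 0.05 only without normal replicate 2 of week 12.

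Same-numbered tumor and normal libraries deviated together, with 10 of 12 correlations over miRNAs above 0.1. Of the 12 pairs, 8 correlated better than either library did with those of the other tissue and another number. The methods state no pairing of the mice by these numbers. The libraries of each pair also shared a lane, and whether mice, lane or tissue content made them alike was not tested. With the number as a block, miR-708 had -1.41, -2.97, -3.10 and -3.32 at the 4 weeks, and the call of miR-151 at week 6 was lost; it changed no other call of a member.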
